A study of Mus musculus with 10 samples.

Results

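The RNA exosome is the main 3′ to 5′ RNA-degrading complex of eukaryotic cells, and the genes described here are its 10 EXOSC-named subunits, Exosc1 to Exosc10. They were chosen by symbol, matched to Ensembl gene IDs through GENCODE vM21, and make up 10 of the 55487 genes in the RNA-seq tables. All 10 IDs were found, and the transcripts listed for each of the 10 were those of GENCODE vM21.

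The cells were E14, a mouse embryonic stem cell line grown in medium with 15% serum, LIF, a GSK inhibitor at 3 µM and a MEK1/2 inhibitor at 1 µM, with no genotype change or other treatment named in the labels. Of the 10 samples in 6 groups, the 3 RNA-seq replicates were used. Not analysed here were 7 samples for R-loops: BisMapR and MapR with GST-RHΔ-Mnase, a BisMapR sample labelled RNaseA, a MapR sample with GST-MNase and a MapR sample labelled NBSS. With 1 group there was no contrast between conditions, so levels were compared between genes within each replicate, with the spread over replicates as the error. The labels do not say whether the replicates came from separate cultures, so that spread may be technical.

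As background, the complex is built from a ring of 6 proteins with the fold of bacterial RNase PH, encoded by Exosc4 to Exosc9, and a cap of 3 proteins with RNA-binding domains, encoded by Exosc1, Exosc2 and Exosc3. In mammals this core has no nuclease activity of its own. Cutting is done by attached enzymes: EXOSC10 in the nucleolus and nucleus, DIS3 in the nucleus and DIS3L in the cytoplasm. The complex trims ribosomal RNA precursors and removes promoter upstream transcripts, enhancer RNAs and faulty mRNAs. In embryonic stem cells, loss of exosome function is known to raise such short-lived transcripts, and unprocessed nascent RNA is one partner in R-loops.

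Summed over genes, replicate 1 had 11420425 estimated counts, replicate 2 had 6467405 and replicate 3 had 5787357, where an estimated count is a read number that may include fractions of reads shared between genes. Of 8 embryonic stem cell markers, 8 reached a mean TPM of 1 (a level scaled by gene length and by library), with a summed TPM from 457 to 629. Of 7 fibroblast feeder markers, 4 had no count in any replicate and only Thy1 reached that level, with a summed TPM from 1.24 to 3.37. Of 8 lineage markers none reached it, with a summed TPM from 1.66 to 2.88. Some were still counted: Eomes had 78, 62 and 52 counts (mean TPM 0.95), Sox1 122, 67 and 44, and Gata4 47, 19 and 12. These genes are therefore not read as absent. The other lineage markers had at most 5 counts in any replicate. Genes of effective length under 100 nt held 60.3%, 65.8% and 63.9% of all TPM in replicates 1, 2 and 3, and leaving them out multiplied every other TPM by 2.52, 2.93 and 2.77, so TPM differences between replicates depend on them. In such bulk RNA, fewer expressing cells and less RNA per cell cannot be told apart.

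Of the 10 subunit genes, 9 reached a mean TPM of 1, against 44.2% of all protein-coding genes, and 1, Exosc6, was listed at 0 in every replicate. Exosc8 was highest, Exosc3 and Exosc4 were the lowest of the 9, and the other 6 lay close together between 10.7 and 15.0 TPM. The median of the 10 in log2(TPM + 1) was 3.67 ± 0.15 (SD, n = 3), against 2.72 ± 0.29 (SD, n = 3) for the 9680 protein-coding genes of mean TPM of at least 1. The members' median lay above by 0.95 ± 0.15 (SD, n = 3), or by 1.02 ± 0.12 (SD, n = 3) with Exosc6 left out. Against all protein-coding genes with any count, rather than those of mean TPM of at least 1, it lay above by 2.11 ± 0.11 (SD, n = 3). The difference had the same sign in all 3 replicates, but an exact sign-flip permutation test over 3 replicates cannot go below a two-sided p of 0.25, so this test could not reach the threshold of 0.05.

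**Figure D1:**
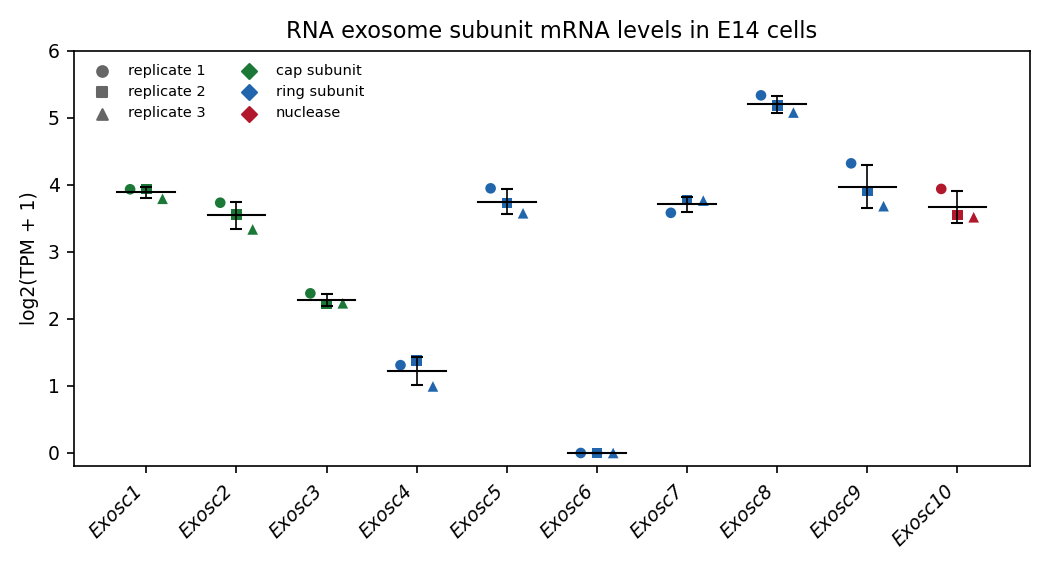
Levels of the 10 RNA exosome subunit genes in log2(TPM + 1), with 1 symbol per replicate and the mean and SD (n = 3) as black lines; colour gives the role of the subunit. Exosc8 stands above the others in every replicate, and Exosc6 sits at 0.

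The ring subunits spanned the whole range of levels. Exosc8 (ENSMUSG00000027752, chromosome 3, 54728678 to 54735393), a ring subunit that pairs with EXOSC5, had 39.36, 35.40 and 32.78 TPM in replicates 1, 2 and 3, from 977, 596 and 523 counts. Its lowest replicate lay above the highest replicate of every other subunit, and its mean of 35.8 ± 3.31 TPM (SD, n = 3) exceeded 92.1% of expressed protein-coding genes. Exosc5 (ENSMUSG00000061286, chromosome 7, 25659164 to 25671368) had 14.43, 12.24 and 10.92 TPM. Exosc5 minus Exosc8 was -1.45 ± 0.06 in log2(TPM + 1) (SD, n = 3), so the genes of this heterodimer differed by more than the spread between replicates. These are gene-level values over all annotated transcripts, of which 2 of 11 for Exosc8 and 2 of 6 for Exosc5 are typed protein-coding. A difference in coding mRNA alone was not tested.

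The second heterodimer showed a wider gap. Exosc9 (ENSMUSG00000027714, chromosome 3, 36552606 to 36565727), which encodes the PM/Scl-75 autoantigen, had 18.98, 14.04 and 11.83 TPM from 480, 267 and 246 counts. Exosc4 (ENSMUSG00000034259, chromosome 15, 76327397 to 76330677), whose product RRP41 sits beside EXOSC9 in the ring, had 1.48, 1.60 and 0.99 TPM from 66, 50 and 30 counts. The groups of values did not overlap, and the difference, Exosc4 minus Exosc9, was -2.74 ± 0.24 in log2(TPM + 1) (SD, n = 3). Of the 9 subunit genes with counts, Exosc4 was the lowest, above only 6.46% of expressed protein-coding genes, yet its counts were well over the floor of 3 counts that corresponds to between 0.0673 and 0.0991 TPM at its length.

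The third heterodimer could not be compared. Exosc7 (ENSMUSG00000025785, chromosome 9, 123113215 to 123136129) had 10.98, 12.70 and 12.59 TPM from 311, 203 and 223 counts. Exosc6 (ENSMUSG00000109941, chromosome 8, 111056339 to 111057664), which encodes the ring subunit MTR3, had an estimated count of 0 in all 3 replicates, as did 26.1% of all protein-coding genes. At its length a floor of 3 counts is 0.0931, 0.134 and 0.132 TPM in replicates 1, 2 and 3. No ratio is given against a gene listed at 0.

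The annotation places Exosc6 in a position where that 0 is uncertain. Exosc6 has 1 exon and 1 annotated transcript of 1326 nt, and 100% of it lies inside exon 21, the last exon, of the coding transcript of Aars (ENSMUSG00000031960), the alanyl-tRNA synthetase gene, on the same strand. That exon runs from 111055019 to 111057664, ends at the same base as Exosc6, and is 3′ untranslated from 111055202 on. RefSeq (GRCm38.p6) ends Aars at 111055569, which is 770 bases before Exosc6 begins. Under the GENCODE model, any read from Exosc6 mRNA also matches Aars by its full sequence. Aars had 4844, 2793 and 2591 counts, all whole numbers, and 30.9 ± 4.64 TPM (SD, n = 3). The start codon of Exosc6, in capitals in the 30 bases of chr8:111056359-111056388 (GRCm38.p6, plus strand), is therefore also a stretch of the annotated Aars 3′ end.
Exosc6 start: ccggtagccgccATGccgggagaccatcgc
How many reads counted for Aars came from Exosc6 was not tested, so the value listed for Exosc6 is not taken as its level. It still enters at 0 in the order of the subunits and, unless Exosc6 is said to be left out, in their medians and spread.

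**Figure D2:**
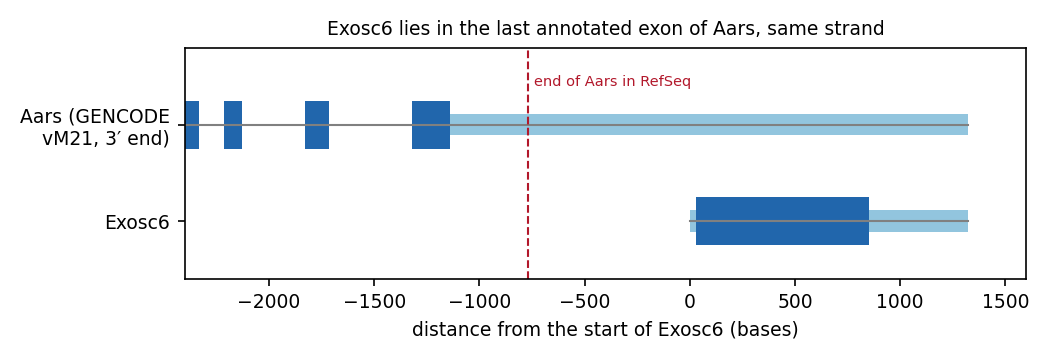
Map of the 3′ end of Aars and of Exosc6 in bases from the start of Exosc6, both read left to right; thin boxes are untranslated exon parts, thick boxes coding parts, and the dashed line is the RefSeq end of Aars. All of Exosc6 lies inside the last exon of Aars in GENCODE vM21 and beyond the RefSeq end of Aars.

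The cap subunits fell into the middle group with 1 exception. Exosc1 (ENSMUSG00000034321, chromosome 19, 41922292 to 41933423), the gene of CSL4, had 14.28, 14.30 and 12.85 TPM. Exosc2 (ENSMUSG00000039356, chromosome 2, 31670715 to 31681349), the gene of RRP4, had 12.30, 10.79 and 9.09 TPM. Exosc3 (ENSMUSG00000028322, chromosome 4, 45316613 to 45342732), the gene of RRP40, was lower, with 4.21, 3.67 and 3.70 TPM from 80, 50 and 48 counts. Exosc2 exceeded Exosc3 by 1.26 ± 0.14 in log2(TPM + 1) (SD, n = 3), with no overlap between their replicates. The median of the cap genes minus that of the ring genes was -0.17 ± 0.13 in log2(TPM + 1) (SD, n = 3) with Exosc6 at 0. Without Exosc6 it was -0.26 ± 0.08 (SD, n = 3). The difference with Exosc6 at 0 turned to 0.10 when counts scaled by library total alone (CPM) were used, so no direction between cap and ring is given.

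Exosc10 (ENSMUSG00000017264, chromosome 4, 148558429 to 148582401), the gene of the nuclease RRP6, had 14.34, 10.71 and 10.44 TPM from 959, 512 and 483 counts. Among the catalytic partners, Dis3 had 19.93, 14.88 and 12.92 TPM and Dis3l 1.55, 1.30 and 1.23 TPM. Exosc10 lay below Dis3 in every replicate, with a difference, Exosc10 minus Dis3, of -0.39 ± 0.09 in log2(TPM + 1) (SD, n = 3). The gene of the cytoplasmic nuclease was lower than both nuclear ones, with Exosc10 above Dis3l by 2.43 ± 0.14 and Dis3 above Dis3l by 2.82 ± 0.20 in log2(TPM + 1) (SD, n = 3).

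In descending order of mean TPM the subunit genes were Exosc8, Exosc9, Exosc1, Exosc5, Exosc7, Exosc10, Exosc2, Exosc3, Exosc4 and Exosc6. From Exosc9 to Exosc2, each neighbour in that order overlapped the next in its replicate values. None of the 5 neighbouring pairs among these 6 genes kept 1 order in all 3 replicates, and their mean differences ran from 0.04 to 0.14 in log2(TPM + 1), with SDs from 0.12 to 0.34. Of all 15 pairs among the 6, 7 kept 1 order in every replicate, and in 2 of these the replicate values did not overlap: Exosc1 lay above Exosc2 by 0.34 ± 0.13 and above Exosc7 by 0.18 ± 0.16 in log2(TPM + 1) (SD, n = 3). By CPM Exosc1, at 33.9, 39.9 and 40.1, instead lay below Exosc2, at 43.8, 44.5 and 43.9, in every replicate. It stayed above Exosc7, at 27.2, 31.4 and 38.5 CPM, in every replicate, but the values overlapped. No direction between Exosc1 and Exosc2 is therefore given. The step from Exosc8 to Exosc9 was 1.23 ± 0.20 and that from Exosc2 to Exosc3 1.26 ± 0.14 in log2(TPM + 1). That from Exosc3 to Exosc4 was 1.05 ± 0.20 (all SD, n = 3). By TPM, all 3 steps had the same sign in every replicate and no overlap. By CPM this held for Exosc8 to Exosc9 and for Exosc2 to Exosc3, but not for Exosc3 to Exosc4. Exosc3 had 80, 50 and 48 counts and Exosc4 66, 50 and 30, a tie in replicate 2, and their CPM values overlapped.

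The order depended on length scaling. Exosc10 is the longest of the subunit genes, with a coding length of 2661 nt against 585 to 1314 nt for the other 9. Before length scaling, Exosc10 had 84.0, 79.2 and 83.5 CPM and Exosc8 85.5, 92.2 and 90.4 CPM. These values were closer than their TPM values, but on both scales Exosc8 was higher in every replicate without overlap. Exosc9, above Exosc10 by TPM in every replicate, lay below it by CPM in every replicate. The length used for each gene is an average over its transcripts weighted by their estimated abundance. For Exosc9 it was 1070, 1148 and 1228 nt in replicates 1, 2 and 3, shorter than its transcript of 1617 nt that holds the longest coding sequence, so shorter transcripts carried weight. Its TPM was highest in replicate 1, where this length was shortest, although its CPM was 42.0, 41.3 and 42.5 in the same order. TPM was also highest in replicate 1 for 6 of the 9 detected subunits and for 86.5% of expressed protein-coding genes. For Exosc7 the weighted length was 1181, 989 and 1066 nt, and its TPM was lowest in replicate 1, where this length was longest. The CPM of Exosc7, at 27.2, 31.4 and 38.5, was also lowest in replicate 1. Levels of single transcripts were not analysed here.

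Counts of the 9 detected genes were whole numbers (within 0.005) in 27 of 27 values, while between 82.1% and 82.8% of all nonzero gene counts in each library were whole. No gene whose annotated name marks it as a copy of an Exosc gene was found. Genes on the opposite strand that overlap their exons remain a source of doubt, since the strand setting of the counting is not stated. The widest such overlap was between Exosc4 and Oplah, at 19.8% of the exonic bases of Exosc4. Oplah had 35, 39 and 21 counts. Ccna2, with 46.5 ± 6.85 TPM (SD, n = 3), covered 10.8% of the exonic bases of Exosc9.

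Spread between replicates was tested for all genes with the goodness-of-fit test of edgeR, which asks whether a gene varied more than genes of similar abundance. All 9 genes with counts passed the filter on low counts, and 0 of the 9 varied at an adjusted p under 0.05, where 1.84% of the 12577 genes tested did. At an unadjusted p under 0.05 the count was also 0 of 9, against 6.96%. Exosc7 was the most variable, with 25.9, 30.4 and 41.8 CPM after scaling by the trimmed mean of M-values (TMM), a coefficient of variation of 25.0% and an edgeR unadjusted p of 0.113 (adjusted p 1.00). The median coefficient of variation of the 500 genes nearest to it in abundance was 10.8%. Exosc5 was the steadiest, with 36.9, 37.8 and 41.0 TMM-scaled CPM and a coefficient of variation of 5.63%.

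The direction of the small deviations depended on the scale. By TPM, 7 of the 9 were lowest in replicate 3, near the 79.4% of expressed protein-coding genes that were. By TMM-scaled CPM, 8 of the 9 were highest in replicate 3, Exosc4 being the exception, against 40.6% of all genes tested. Most subunit genes are short, and 5 of the tested ones (Exosc1, Exosc5, Exosc7, Exosc8 and Exosc9) lie in length class 2 of 10 equal classes of gene length, from 931 to 1328 nt. All 5 of these were highest in replicate 3, as were 64.1% of the genes of that class with a mean count of at least 100. The median deviation of that class was -0.09, -0.02 and 0.11 (log2) in replicates 1, 2 and 3. Exosc7 deviated by -0.31, -0.08 and 0.38, and Exosc8 by -0.13, 0.00 and 0.13. The part of gene length in the members' deviations was not tested beyond these values, and with an offset on gene length in the fit the count of varying members was again 0.

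**Figure D3:**
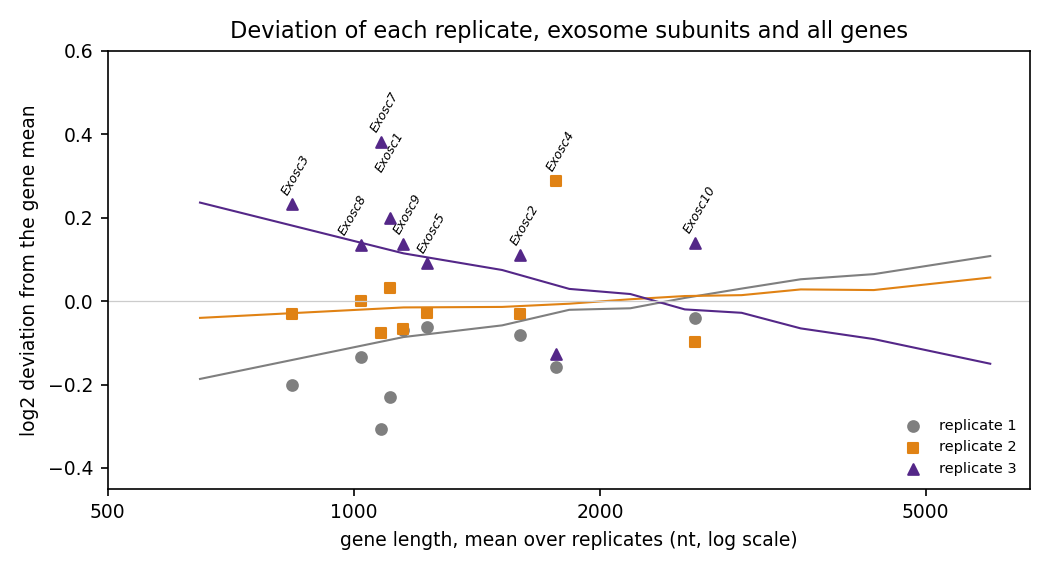
Log2 deviation of each replicate from the gene mean of TMM-scaled CPM against gene length in nt (log axis), with symbols for the 9 exosome subunit genes with counts and lines for the median of all genes with a mean count of at least 100 in each of 10 length classes, drawn at the median length of the class. Replicate 3 lies above 0 for 8 of the 9 subunits, and its line is above 0 for short genes and below 0 for long ones.

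Levels were set beside those of 2 other complexes whose subunits assemble into rings. The 8 genes of the TCP1 chaperonin, which folds actin and tubulin, had mean levels from 60.2 TPM for Cct3 to 151 TPM for Cct8. The 14 genes of the 20S proteasome core ran from 19.0 TPM for Psmb5 to 114 TPM for Psma3. All 9 detected exosome genes had lower means than any chaperonin gene, since Exosc8, the highest, had 35.8 TPM. The SD among subunits in log2(TPM + 1) was 1.53 ± 0.04 for the 10 exosome genes and 1.13 ± 0.03 for the 9 without Exosc6 (SD over replicates, n = 3). It was 0.42 ± 0.09 for the chaperonin and 0.79 ± 0.02 for the proteasome core (SD, n = 3), and 1.49 ± 0.02 among expressed protein-coding genes. The SD of the 9 exceeded that of the chaperonin in each of the 3 replicates by 0.64, 0.70 and 0.79, and that of the proteasome core by 0.35, 0.30 and 0.36. The smallest p that an exact sign-flip permutation test allows here is 0.25, so the wider spread among the exosome genes is a description of these libraries.

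The genes of proteins that bring RNA to the exosome or work with it were listed as 24 partners, and 23 reached a mean TPM of 1. Their median was 9.19 TPM, against 11.96 TPM for the 10 subunits. Most partner genes had longer weighted lengths than most subunit genes, and the medians were not compared by CPM. No direction between partners and subunits is therefore given. Among nuclear cofactors, Mtrex, the RNA helicase MTR4 that threads RNA into the complex, had 15.5 ± 2.91 TPM, Mphosph6 18.5 ± 4.52 TPM, C1d 7.59 ± 2.20 TPM and Nop53, which recruits MTR4 to ribosomal precursors, 23.1 ± 6.11 TPM (all SD, n = 3). By their means, C1d lay below the 6 middle subunits and the other 3 above them. Replicate values of each cofactor overlapped those of a middle subunit, so this order holds for the means alone. In the NEXT complex, which targets promoter upstream and enhancer RNAs, Rbm7 had 15.7 ± 2.87 and Zcchc8 8.62 ± 2.14 TPM (SD, n = 3). In the PAXT connection, which targets polyadenylated nuclear RNAs, Zfc3h1 had 15.16, 7.47 and 5.59 TPM in replicates 1, 2 and 3. Replicate 1 was the highest of the 3 by far in TPM, but less so in CPM, at 95.5, 79.5 and 62.7. The weighted length of Zfc3h1 was 2791, 3772 and 3553 nt in the same order.

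The partner under a mean TPM of 1 was Zc3h3, also of PAXT, with 1.10, 0.66 and 0.27 TPM from 96.5, 40.2 and 16.4 counts. With genes of effective length under 100 nt left out of the TPM scaling, Zc3h3 had 2.77, 1.93 and 0.75 TPM, and all 24 partners reached a mean of 1, as they did by CPM. Zcchc7, Tent4a and Tent4b, genes of the TRAMP-type complex, which as a whole adds short tails to nuclear RNAs, ran from 4.39 to 7.97 TPM. Of the cap-binding and ARS2 genes, which link capped RNA to the exosome, Srrt had 19.8 ± 5.40, Ncbp1 18.2 ± 2.87, Zc3h18 8.02 ± 1.25 and Ncbp2 3.27 ± 0.65 TPM (SD, n = 3). The cytoplasmic SKI complex feeds mRNA to the exosome, and its genes ran from 3.96 TPM for Skiv2l to 21.7 TPM for Wdr61.

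**Figure D4:**
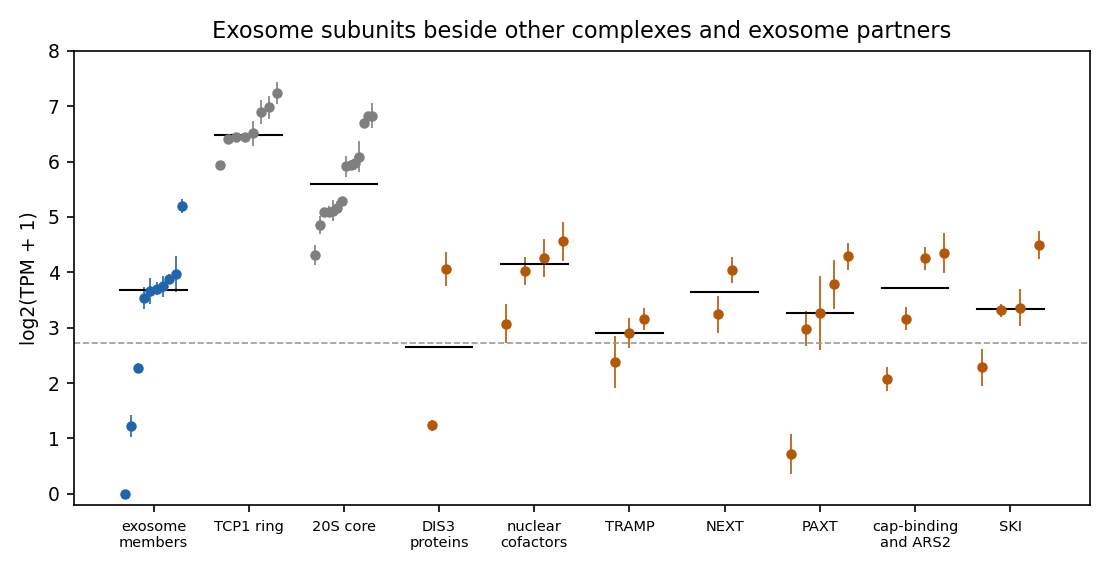
Mean level of each gene in log2(TPM + 1) with its SD (n = 3), for the exosome subunits (blue), the TCP1 ring and the 20S proteasome core (grey) and the groups of exosome partners (orange); black lines are group medians, and the dashed line is the median of expressed protein-coding genes, 2.72. The exosome subunits spread more widely than either other complex and overlap the range of their partners.

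Several subunit genes start beside a gene on the opposite strand, an arrangement that strand-specific R-loop maps are designed to resolve. In GENCODE vM21, 6 of the 10 had such a start within 1000 bp, against 18.2% of all protein-coding genes and 28.8% of those of mean TPM of at least 1. The pairs were Exosc7 with Zdhhc3 at 10 bp, Exosc1 with Zdhhc16 at 57 bp, Exosc8 with Alg5 at 146 bp, Exosc5 with Bckdha at 183 bp, Exosc4 with Oplah at 618 bp and Exosc3 with Dcaf10 at 631 bp. In the first 4 the genes pointed away from each other without overlap, and in the last 2 the first exons or gene bodies overlapped. The start used for Exosc3 is that of a longer transcript model, since the transcript with its longest coding sequence starts at 45320629.

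For 3 of these pairs the bases between the RefSeq starts of the 2 genes are printed, because by these starts they lie upstream of both. They are given 5′ to 3′ on the strand of the exosome gene (RefSeq, GRCm38.p6). They are chr3:54735365-54735538 (minus strand), chr9:123113195-123113230 (plus strand) and chr19:41933315-41933444 (minus strand), of 174, 36 and 130 bases. In GENCODE vM21, Exosc8, Exosc7 and Exosc1 start inside these stretches, at 54735393, 123113215 and 41933423. The distances given above, from GENCODE, are therefore shorter, and part of each stretch is annotated as exon there. Capitals mark matches to the motifs named after them.
Exosc8 and Alg5: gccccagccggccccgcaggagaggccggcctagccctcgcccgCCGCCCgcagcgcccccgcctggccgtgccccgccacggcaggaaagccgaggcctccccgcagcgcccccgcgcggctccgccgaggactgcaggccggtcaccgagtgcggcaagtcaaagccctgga
Exosc7 and Zdhhc3: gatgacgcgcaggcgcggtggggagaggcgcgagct
Exosc1 and Zdhhc16: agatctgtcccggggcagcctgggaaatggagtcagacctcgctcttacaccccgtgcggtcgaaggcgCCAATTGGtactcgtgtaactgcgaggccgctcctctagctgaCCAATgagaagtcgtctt
The Exosc8 stretch held 79.9% G and C with 23 CpG dinucleotides and 1 match to the GC box (GGGCGG, either strand). The Exosc1 stretch held 58.5% G and C and 3 matches to the CCAAT box (CCAAT, either strand), of which 2 overlap in opposite directions. The Exosc7 stretch held 75.0% G and C and no match.

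Across the RefSeq windows of 250 bases before to 50 after a start, 8 of the 10 subunit genes had an entry, in 9 windows, since Exosc10 has 2. The median window of the subunits held 24 CpG dinucleotides, against 7 over all 32851 windows. These windows, also used for the motifs below, were not limited to expressed genes, and no background of expressed genes was computed. The GC box was present in 6 of the 9, against 35.7% of all windows. The CCAAT box was in 3 of 9 (37.4% of all), the ETS core (CCGGAAG) in 2 of 9 (8.86%), and the E-box (CACGTG) in 1 of 9 (7.15%). The NRF1 core motif was in 1 of 9, that of Exosc5 (0.97%), and the TATA box (TATAAA) in 0 of 9 (13.6%). All motifs were searched on both strands, and a match is a description of the letters alone.

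The paired genes differed in level to varying degrees. Exosc8 was far above Alg5, an enzyme of N-glycan synthesis with 4.80, 5.58 and 3.08 TPM, in every replicate and without overlap. Zdhhc3, a palmitoyltransferase gene, had 14.38, 10.45 and 10.52 TPM, which overlapped the values of Exosc7. Zdhhc16 had 11.82, 9.56 and 11.07 TPM, below Exosc1 in every replicate. Bckdha, which encodes a subunit of the branched-chain ketoacid dehydrogenase, had 10.45, 6.46 and 7.88 TPM, also below Exosc5 in every replicate. Dcaf10 and Oplah, at 1.91 ± 0.48 and 0.73 ± 0.40 TPM (SD, n = 3), lay below Exosc3 and Exosc4 in every replicate, although the values of Oplah, from 0.44 to 1.19 TPM, overlapped those of Exosc4. By TPM, the exosome gene was thus the higher of the 2 in every replicate in 5 of the 6 pairs, and in 2 of 3 replicates for Exosc7. This depended on length scaling. By counts, Dcaf10 (260, 149 and 96) exceeded Exosc3 (80, 50 and 48) in every replicate. Zdhhc3 (858, 452 and 358) likewise exceeded Exosc7 (311, 203 and 223). Exosc1 and Exosc5 changed order with their neighbours between replicates, while Exosc8 and Exosc4 stayed higher in every replicate.

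**Figure D5:**
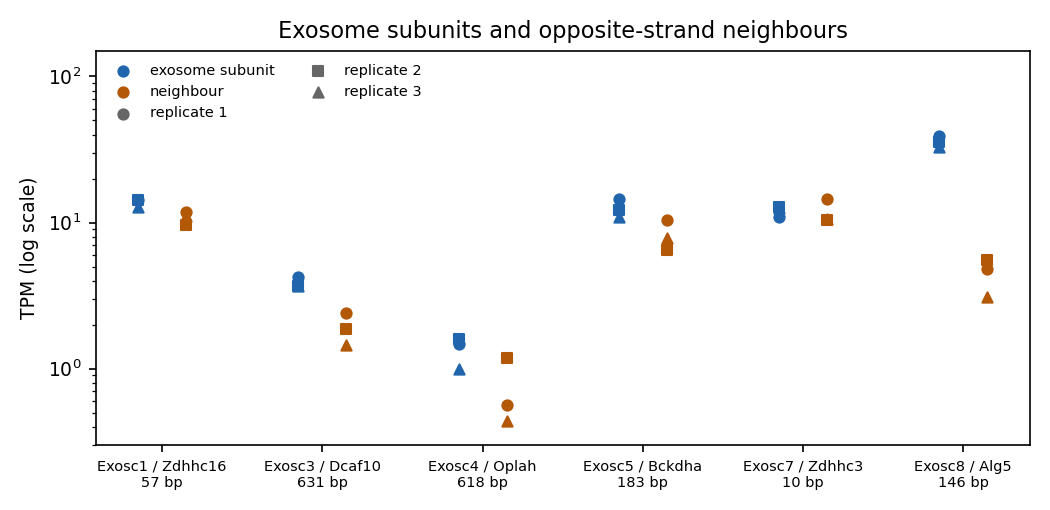
TPM (log axis) of the 6 exosome subunit genes that have an opposite-strand gene starting within 1000 bp (blue) and of that neighbour (orange), with 1 symbol per replicate and the distance between starts under each pair. The widest gap is that of Exosc8 and Alg5, while Exosc7 and Zdhhc3 overlap.

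The 3 protein-coding genes whose log2(TPM + 1) lay closest to the per-replicate median of the subunits were Sec22b, Dnpep and Nrf1, at Euclidean distances of 0.042, 0.048 and 0.049 over 3 samples. With 3 samples of 1 condition this likeness reflects level, not a shared course. Sec22b, the closest, had 12.89, 11.37 and 10.58 TPM, beside subunit medians of 13.3, 11.5 and 10.7 TPM.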

How the data were processed

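Gene-level tables of the 3 RNA-seq replicates were used as deposited. Per the file headers, they hold RSEM-style estimated counts and TPM; the authors also deposited FPKM and lengths (FPKM unused). Per the labels' protocols, ribosomal RNA was removed from total RNA, and a kit that keeps strand information was used for the cDNA. Per the submitters' processing notes, STAR, RSEM and mm10 were used; versions, annotation release and strand setting are not given in the sources used here. GENCODE vM21 (GRCm38) supplied names and coordinates for 55141 of 55487 IDs.

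Levels are log2(TPM + 1). Estimated counts were rounded and fitted in edgeR 4.0.16 (R 4.3.3; TMM, filterByExpr, intercept-only model, trended dispersion, goodness-of-fit p-values adjusted by Benjamini-Hochberg). Tested on simulated data for the spread between the 3 RNA-seq replicates (12317 genes), this recovered 4, 39, 45 and 49 of 50 genes changed 2-, 4-, 8- and 16-fold in 1 replicate. Python 3.11.15, pandas 2.3.3 and matplotlib 3.10.9 did the rest.

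A floor of 3 counts is 0.263, 0.464 and 0.518 CPM and covers counting error only. Members and lists were chosen with earlier results of these data known. Named genes are the members, the listed partners, other decay nucleases, complexes and markers, opposite-strand starts within 1000 bp, overlapping genes and the 3 closest genes; Oplah, Ccna2 and Aars were named for their overlap. Alternatives covered normalization (DESeq2 1.42.0), filters, pseudocount, length scaling and replicates.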

Additional observations from a re-analysis of the deposited data

How the results depend on the processing

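The 11 results were recomputed under 71 alternatives, of which 52 left the value within its allowed spread, 18 moved it and 1 reversed it; 4 were chosen after seeing the data, each leaving out Exosc6. Its value at 0 makes the highest minus lowest member and the SD among members depend on the pseudocount by construction. Highest minus lowest, 5.20, rose to 8.49 at pseudocount 0.1, to 6.50 by CPM and to 6.63 by TPM over genes of effective length of at least 100 nt and was 3.97 without Exosc6. The SD among members, 1.53, became 2.43, 2.00, 1.92 and 1.13 in that order. The members' median minus that of expressed protein-coding genes, 0.95, became 0.72 with CPM and 2.11 without a filter on expression, which adds low genes to the comparison. Cap minus ring, -0.17, reversed to 0.10 with CPM. Exosc4 minus Exosc9, -2.74, became -3.37 with a pseudocount of 0.1 and -3.14 with TPM over longer genes; Exosc5 minus Exosc8, -1.45, became -1.51 with a pseudocount of 0.1 and -1.19 with CPM; Exosc10 minus Dis3, -0.39, became -0.62 with CPM. Apart from the effects of construction named here, the cause was not tested. The number of varying genes, 232, ran from 63 to 93 when 1 replicate was left out (63 without replicate 2, 89 without replicate 1 and 93 without replicate 3), and the varying members stayed at 0 in every fit. No difference between Exosc6 and Exosc7 was computed, because Exosc6 is listed at 0. Depth limits Exosc4 most, with 30 counts in replicate 3. No paired analysis was possible because the RNA-seq replicates form a single group with nothing to pair against.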

Other observations

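Nucleases that degrade RNA outside the exosome were detected in every replicate. Xrn2, the nuclear 5′ to 3′ enzyme that acts in transcription termination, had 28.58, 23.27 and 28.23 TPM, and its cytoplasmic relative Xrn1 had 8.05, 6.35 and 5.07 TPM. Pnpt1, a mitochondrial enzyme of the RNase PH family and so a relative of the exosome ring, had 29.83, 23.70 and 23.25 TPM. By TPM, Pnpt1 lay below Exosc8 in every replicate and above the other 9 subunits. By CPM, at 125, 133 and 107, it instead lay above Exosc8, at 85.5, 92.2 and 90.4, in every replicate. No direction between Pnpt1 and Exosc8 is therefore given. Dis3l2, a DIS3 relative that acts without the exosome, had 4.74, 3.61 and 2.82 TPM, above Dis3l in every replicate. Parn, a deadenylase, had 5.55 ± 1.91 TPM and Eri1, an exonuclease that trims histone mRNA ends, 8.02 ± 1.18 TPM (SD, n = 3).

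Exosc6 is 1 of 9 protein-coding genes whose whole span lies inside a single exon of another coding gene ID on the same strand. Of these 9, 5 had no count in any replicate, as did 26.1% of all protein-coding genes. In 3 of the 5 (Arhgef4, Olfr290 and Vmn1r216) the surrounding gene is a second ID of the same name. For 6 of them the surrounding gene had a mean TPM of at least 1, and 2 of those, Exosc6 and AC140267.1, were at 0. Yy2, inside an exon of Mbtps2, had 64.5 counts over the 3 replicates, and Rsc1a1, inside one of Ddi2, 142 counts, so the position does not always come with a count of 0. These genes were chosen after their values were seen.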
